A study of Mus musculus with 7 samples.

Results

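Long noncoding RNAs were examined in mouse bone marrow-derived macrophages (BMDMs), which are macrophages grown from marrow precursors in culture with M-CSF. The members were chosen by biotype and level, as the rows of the LPS table called lincRNA or antisense whose mean over the LPS libraries was 50 or more. This left 97 of the 6209 lincRNA or antisense genes, in a table of 48440 genes. Of the 97, 62 were lincRNA and 35 were antisense. Wild-type (WT) BMDMs were left without treatment (0 h) or stimulated with 100 ng per mL of LPS, the bacterial lipopolysaccharide sensed by the receptor TLR4, for 2 h or 4 h, and each time point gave 1 library. A separate experiment used an adeno-associated virus, carrying GFP (AAV-GFP) or Shisa3 (AAV-Shisa3), on BMDMs for 48 h, with 2 samples per group and no LPS in their labels. All groups were cultured with M-CSF, and whether the 2 samples of an AAV group came from separate mice or cultures is not given in the labels, so their p-values measure only the spread between these samples, which may be technical.

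The LPS values are reads divided by 1 factor per library, and depth ranged from 7263258 reads (2 h) over 15588502 (0 h) to 32659392 (4 h). The members had a median of 148 reads at 0 h, 42 at 2 h and 222 at 4 h, and 30 of them had fewer than 30 reads at 2 h. Macrophage markers were high throughout, with values summing to between 314376 and 347356 over the 7 of 8 listed genes with a single row in the LPS table, and B cell markers summed to at most 1.29. In order of time, fibroblast markers summed to 459, 714 and 541 and T cell markers to 128, 247 and 99.4, nearly all of it Cd4 (126.7, 247 and 92.4) with Cd3e at 0, while dendritic and mast cell markers each summed to at most 93.9. The summed neutrophil markers were 4717 before LPS, 9909.5 after 2 h and 7039.9 after 4 h, and the part of these other cell types in the LPS changes was not tested. With 1 library per time point the LPS changes have no replicate check and carry no test. Intervals of folds below are exact 95% intervals of the reads (Clopper-Pearson), and they cover counting error only.

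Long noncoding RNAs are transcripts without a long reading frame. Some act as scaffolds in the nucleus, some are the precursors from which microRNAs are cut, and others lie beside or across a protein-coding gene whose transcription they may share. In macrophages, TLR4 signals through NF-κB and through interferon, and a small number of long noncoding RNAs are well known as targets of these pathways. The 10 members with the highest mean were Malat1, Neat1, AW112010, Gdap10, AI662270, 1700020I14Rik, F630028O10Rik, Mir155hg, Kcnq1ot1 and Brip1os.

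Several members are microRNA hosts, and the mature microRNAs of the hosts described most closely below are shown here, with the seed (bases 2 to 8) in capitals. The sequences are from RefSeq on GRCm38. Mir155hg carries miR-155, an activator of inflammatory macrophage programmes (5p arm at chr16:84714143-84714165, plus strand). F630028O10Rik carries miR-223, a microRNA of the myeloid lineage (3p arm at chrX:96242884-96242905, plus strand). Mir142hg carries miR-142a, which is abundant in blood cells, and 6720427I07Rik carries 3 microRNAs of the let-7 family.
mmu-miR-155-5p: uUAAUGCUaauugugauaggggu
mmu-miR-155-3p: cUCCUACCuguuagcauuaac
mmu-miR-223-5p: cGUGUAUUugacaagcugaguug
mmu-miR-223-3p: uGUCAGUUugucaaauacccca
mmu-miR-142a-5p: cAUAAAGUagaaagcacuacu
mmu-miR-142a-3p: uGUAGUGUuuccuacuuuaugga
mmu-let-7a-5p: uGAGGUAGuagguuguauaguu
mmu-let-7d-5p: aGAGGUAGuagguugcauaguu
mmu-let-7f-5p: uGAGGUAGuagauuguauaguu
The 3 let-7 arms share the seed GAGGUAG, and the seeds of the other 6 arms differ from it and from each other. The hairpin rows held few reads. Mir155 and Mir223 had 0 reads in all 3 libraries, Mir142 had 57, 25 and 138, and of the let-7 hairpins Mirlet7a-1 had 11, 4 and 10, so the values below are those of the host transcripts.

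By their course over 4 h, 4 of the 97 members rose 2-fold or more by 2 h and fell back at least 2-fold by 4 h on log2(value + 1), which is called a transient rise here. Of the others, 36 were induced, which means at least 2-fold higher at 4 h than at 0 h, 8 were at least 2-fold lower at 2 h only (transient fall), 23 were at least 2-fold lower at 4 h (repressed) and 26 stayed within 2-fold. At 2 h, 29 members (29.9%) had risen 2-fold or more, where the share of all 10215 genes with the same floor was 18.1%, and 25 (25.8%) were at least 2-fold lower, where that share was 15.4%. At 4 h, 38 members (39.2%) had risen as much, the 36 induced ones and 2 with a transient rise, against 22.2% of all genes at the floor, and 23 (23.7%) were lower against 18.0%. The transient rise held 4.12% of the members and 1.97% of all genes at the floor. The median change of the members at 4 h was 0.06 (log2), the same as that of all genes at the floor, while single members ranged from -4.50 to 7.91. A gene can reach the floor through 1 high library alone, which was the case for 12 members, so these shares describe the members and do not test them. The members nearest the floor were Gm26982, 9130221H12Rik and Gm11131 inside it, with means of 52.9, 51.2 and 51.1, and Mypopos, Gm26797 and Gm26520 outside it, with means of 48.1, 48.0 and 47.7. In bulk RNA, fewer cells of a type and less RNA per cell cannot be told apart.

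**Figure D1:**
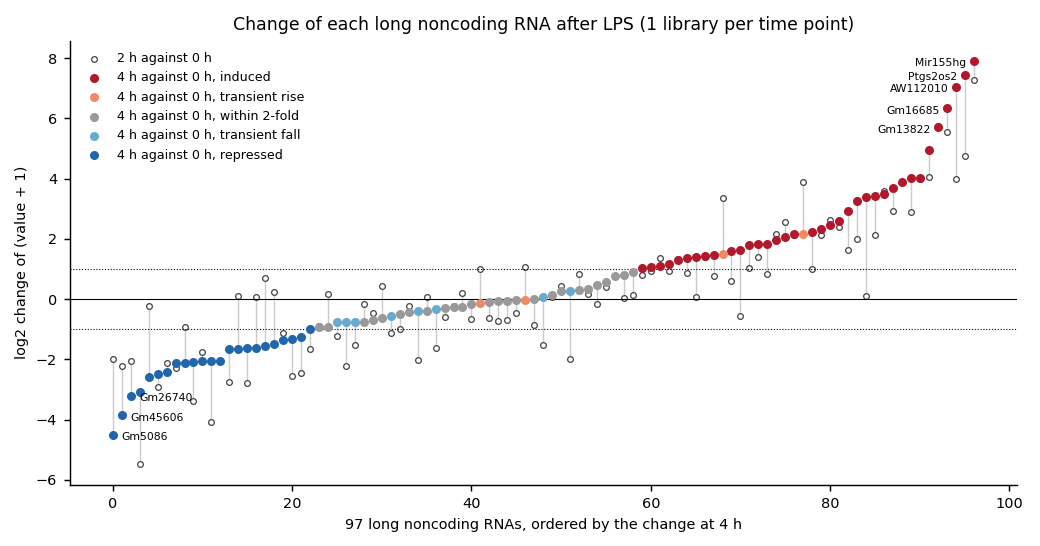
Change of each of the 97 long noncoding RNAs on log2(value + 1), ordered by the change at 4 h against 0 h (filled points, coloured by class), with the change at 2 h as open points joined by a line. Dotted lines mark 2-fold; changes at 4 h run from -4.50 for Gm5086 to 7.91 for Mir155hg, and 1 library per time point gives no error bar.

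The scaling of the libraries moves these counts. Dividing by library totals shifted the median change of all genes by -0.63 at 2 h and -0.77 at 4 h (log2) and left 25 members higher and 40 lower at 4 h. The split of all genes at the floor moved with it, from 22.16% higher and 17.99% lower to 11.96% higher and 40.53% lower. Centring each library on the median log2 value of its genes (those with a mean value of 1 or more) shifted changes at 4 h by 0.37 the other way. It put the median levels of the libraries on a par and not the median change, which went from -0.04 to 0.33 over these genes, and all genes at the floor then split into 30.55% higher and 12.24% lower. At 2 h, 21 members were higher and 37 lower with library totals, and 39 higher and 22 lower after centring. The shares of all genes at 2 h were not computed for these scalings. Under the 4 scalings tried, 25 members were at least 2-fold higher at 4 h in every one and 19 were lower in every one, and 51 members kept their class, 24 of them induced and 18 repressed. The direction given below for a named induced or repressed member at 4 h held under the 4 scalings.

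**Figure D2:**
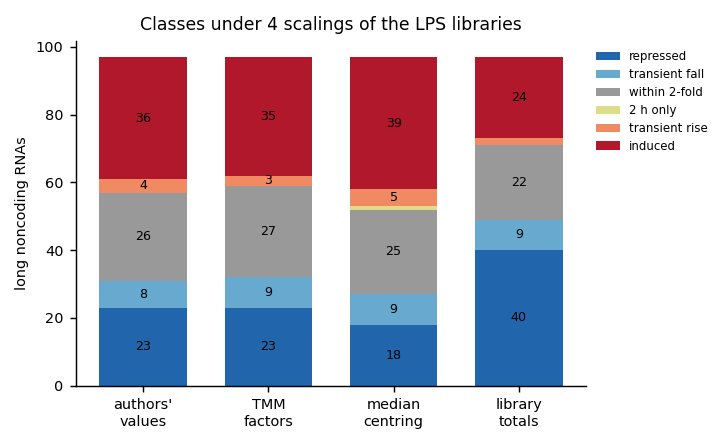
Number of the 97 long noncoding RNAs in each class (stacked bars) under 4 scalings of the LPS libraries. Induced members number 36 with the authors' values, 35 with TMM factors, 39 with each library centred on its median value and 24 with library totals, and repressed members number 23, 23, 18 and 40.

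On log2(value + 1) the largest rise was that of Mir155hg, the miR-155 host (gene at chr16:84703167-84715245, plus strand). Ptgs2os2, with 0 reads at 0 h, has only a lower bound on its fold. Its values were 4.50 at 0 h, 856 at 2 h and 1323 at 4 h, from 7, 392 and 2435 reads. It was 294-fold higher at 4 h, with a counting interval of 142 to 732, and most of the rise was in place by 2 h. By contrast its nearest coding gene, Mrpl39, a mitochondrial ribosomal protein gene 32.6 kb away, changed by 0.88 (log2), which was under 2-fold.

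AW112010, an interferon-responsive transcript from which a small protein has been described, rose later. Its values were 109, 1771 and 14681 in order of time. It was 16.2-fold higher at 2 h (interval 13.7 to 19.2) and 134-fold higher at 4 h (interval 115 to 157). Between 2 h and 4 h alone it rose 8.29-fold, and at 4 h its value per kb of exon, 18259.7, was above the 14676 per kb of Malat1. The gene lies at chr19:11047612-11055808 on the minus strand, and its nearest coding gene, Ms4a8a, had values of 0.643, 2.18 and 4.89.

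Ptgs2os2, also known as lincRNA-Cox2, had 0 reads at 0 h, 12 at 2 h and 321 at 4 h, with values of 0, 26.2 and 174. Set against a floor of 3 reads at 0 h, it was at least 13.6-fold higher by 2 h. By 4 h the same bound was at least 90.4-fold. It lies at chr1:150159043-150164948 on the minus strand, 64.9 kb from the start of Ptgs2, which encodes the prostaglandin-forming enzyme cyclooxygenase-2. Ptgs2 itself had values of 24.4, 14233 and 41858.

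Gm16685 is transcribed across the locus of Il7, a cytokine of lymphocyte survival, on the opposite strand (chr3:7612705-7690001, plus strand). Its values were 2.57, 168 and 287, which is 112-fold higher at 4 h with a counting interval of 43.4 to 412. Il7 had values of 1.93, 21.8 and 29.9.

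Gm13822 lies antisense to Oasl1, an interferon-induced gene of the oligoadenylate synthetase family (chr5:114917318-114923277, minus strand). Its values were 0.643, 87.3 and 84.8, from 1, 40 and 156 reads. The single read at 0 h gives a 132-fold rise at 4 h with a counting interval of 23.3 to 5238. Oasl1 rose from 119.6 to 9678 and 13216. Coding exons share 11% of the exon bases of Gm13822, and the part of Oasl1 in its reads was not tested.

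The next 3 induced members by size were smaller in fold, from 8, 19 and 12 reads at 0 h. A530040E14Rik, which overlaps A530032D15Rik on the opposite strand, had values of 5.15, 100.4 and 189 and was 36.6-fold higher at 4 h (interval 18.4 to 85.5). Coding exons share 14.8% of its exon bases. A530032D15Rik had values of 25.1, 280 and 502, and its part in those reads was not tested. 2500002B13Rik starts 0.2 kb from Sap30, a subunit of the Sin3 histone deacetylase complex, and is read away from it. Its values were 12.2, 209.6 and 216, and those of Sap30 were 251, 3605 and 2404, so that the member was near its 4 h level already by 2 h while Sap30 was highest at 2 h. A230028O05Rik, whose nearest coding gene Tprg had no read, had values of 7.72, 63.3 and 142 and was 18.4-fold higher at 4 h (interval 10.3 to 36.0).

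Over all 36 induced members, 28 were higher at 4 h than at 2 h, and 11 of them at least 2-fold. Another count of 11 had not reached 2-fold at 2 h. Of the most abundant members, Gdap10 had values of 387, 2061 and 2366, and it lies within Nampt on the same strand, with 0% of its exon bases shared with another gene's exons. Nampt itself had values of 1940.1, 5536 and 17305, and its part in the reads of Gdap10 was not tested. AI662270, 32.2 kb from the interferon-induced gene Slfn3, had values of 839, 1522 and 2189, and its rise of 1.38 at 4 h (log2) came to 0.56 with library totals.

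**Figure D3:**
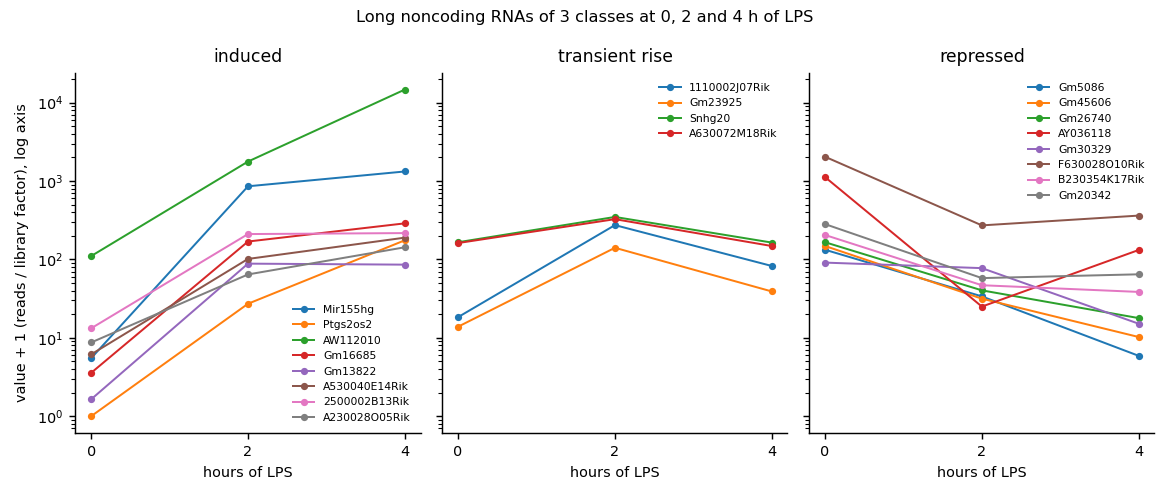
Values plus 1 on a log axis at 0, 2 and 4 h of LPS for the 8 induced members with the largest change at 4 h, the 4 members with a transient rise and the 8 repressed members with the largest change at 4 h, with 1 library per point. AW112010 climbs between each pair of times to 14681, whereas F630028O10Rik and AY036118 are lowest at 2 h.

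Promoter windows from RefSeq on GRCm38 (250 bases before the start to 50 after it) were found for 47 members, giving 58 windows, and those of 3 strongly induced members are shown because their induction is the largest of the lincRNA biotype. Capitals mark matches to the ISRE or the NF-κB consensus on either strand, and matches to other motifs are left in lower case. The Mir155hg window is chr16:84712773-84713072 (plus strand), a RefSeq start inside the longer annotated gene. The capitals are a match to the interferon-stimulated response element (ISRE, searched as GAAANNGAA) whose first base is 238 bases before the start. In the Ptgs2os2 window, chr1:150164899-150165198 (minus strand), the ISRE match reads on the other strand and begins 72 bases before the start. The AW112010 window is chr19:11050517-11050816 (minus strand), also a RefSeq start inside the longer annotated gene. Its capitals are a match to the NF-κB consensus that reads on the other strand and begins 70 bases before the start.
Mir155hg: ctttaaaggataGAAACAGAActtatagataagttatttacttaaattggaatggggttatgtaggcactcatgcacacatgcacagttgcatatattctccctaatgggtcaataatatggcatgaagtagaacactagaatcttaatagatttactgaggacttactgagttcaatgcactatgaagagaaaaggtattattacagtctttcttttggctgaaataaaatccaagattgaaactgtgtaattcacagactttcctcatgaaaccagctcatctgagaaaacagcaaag
Ptgs2os2: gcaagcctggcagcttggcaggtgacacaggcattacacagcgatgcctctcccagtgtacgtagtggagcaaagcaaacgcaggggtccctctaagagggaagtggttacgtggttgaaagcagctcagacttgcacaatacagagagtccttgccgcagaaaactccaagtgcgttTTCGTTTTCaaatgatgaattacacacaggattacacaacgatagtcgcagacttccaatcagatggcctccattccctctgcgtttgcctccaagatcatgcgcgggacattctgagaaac
AW112010: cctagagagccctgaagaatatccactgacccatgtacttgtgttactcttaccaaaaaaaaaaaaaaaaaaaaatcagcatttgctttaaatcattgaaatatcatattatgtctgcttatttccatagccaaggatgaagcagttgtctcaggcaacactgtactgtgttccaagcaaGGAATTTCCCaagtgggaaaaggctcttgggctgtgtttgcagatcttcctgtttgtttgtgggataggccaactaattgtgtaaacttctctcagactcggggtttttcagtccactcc
The ISRE letters were in 6 of the 25 windows of induced members (24%), 1 of 11 of repressed members (9.09%) and 8.56% of all 32851 promoter windows. The NF-κB consensus was in 4 of 25 induced windows (16%), 0 of 11 repressed windows and 8.46% of all. The AP-1 letters TGANTCA were in 0 induced and 0 repressed windows and in 7.81% of all. The PU.1 letters GAGGAA, which name the core bound by the myeloid factor PU.1, were in 8 of 11 repressed windows, 4 of 25 induced windows and 28.3% of all. Some members have several windows, such as Gm26740 with 3 among the 8, so these shares count windows and are descriptions of letters, not of binding.

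A transient rise was seen for 4 members. 1110002J07Rik had values of 17.4, 273 and 81.5, rose 15.7-fold by 2 h (interval 10.3 to 24.8) and was still 4.69-fold above 0 h at 4 h. Gm23925 had values of 12.9, 139.8 and 38.0, but 100% of its exon bases are shared with another annotated gene, so its reads are uncertain. Snhg20, a host of small nucleolar RNAs and of miR-6516, had values of 165, 347 and 163, and A630072M18Rik, which lies antisense to Rsbn1l and shares 95% of its exon bases with coding exons, had 161, 325 and 147. The rise at 2 h was 1.07 for Snhg20 and 1.01 for A630072M18Rik (log2), just past 2-fold, and with library totals these were 0.41 and 0.35.

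Among the 23 repressed members the largest change from 0 to 4 h was that of Gm5086 (listed in the table under its clone name, chr13:97559971-97583996, plus strand). Its values were 132 at 0 h, 32.8 at 2 h and 4.89 at 4 h, from 205, 15 and 9 reads, a change of -4.50 at 4 h (log2). Gm45606 (listed as RP23-384C18.12) lies antisense within Slc43a2, an amino acid transporter gene, and had values of 147, 30.6 and 9.24. Slc43a2 fell alongside it from 7197 to 4116 and 592, and 33% of the exon bases of Gm45606 are shared with coding exons. Gm26740, in the Raet1e and H60b locus of NKG2D ligands, fell from 165 to 39.3 and 16.8.

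F630028O10Rik, the miR-223 host, was the most abundant of the 8 members with the largest falls (chrX:96239926-96243636, plus strand). Its values were 2039, 271 and 361, from 3170, 124 and 665 reads. It was 7.53-fold lower at 2 h and 5.64-fold lower at 4 h. The miR-155 and miR-223 hosts thus moved in opposite directions, by 7.91 and -2.49 at 4 h (log2).

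AY036118 had values of 1121, 24.0 and 131 and was 46.7-fold lower at 2 h, from 1743 and 11 reads. All of its exon bases (100%) are shared with another annotated gene, so its values are uncertain. Gm30329 (listed as RP24-163M14.3) had values of 90.1, 76.4 and 14.1 and fell between 2 h and 4 h, while B230354K17Rik, with 204, 45.9 and 37.5, and Gm20342, with 281, 56.8 and 63.6, were already low at 2 h. Of the 23, 17 were at least 2-fold lower at 2 h as well, and 10 had a higher value at 4 h than at 2 h.

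The nuclear RNAs made up most of the reads. Neat1, the scaffold of nuclear paraspeckles, had values of 62988, 11604 and 26174, so that it was 5.43-fold lower at 2 h and 2.41-fold lower at 4 h, and with each library centred on its median value its change at 4 h was -0.90 (log2), under 2-fold. Kcnq1ot1, the antisense RNA of an imprinted domain, followed the same order with 1332, 194 and 432. Malat1, a nuclear speckle RNA beside Neat1 on chromosome 19, had 124310.2, 81837 and 102481 and stayed within 2-fold, although with library totals its change at 4 h was -1.10. Together the 97 members took 2.05% of all reads at 0 h, 0.704% at 2 h and 0.925% at 4 h. Neat1 alone took 0.628%, 0.0732% and 0.147%, and the members other than Malat1 and Neat1 took 0.178%, 0.115% and 0.200%.

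The lists of related RNAs were read in the whole table, members or not, with a mean of at least 1. Of 13 nuclear or imprinted RNAs, 0 were at least 2-fold higher at 4 h and 9 were lower, with a median change of -1.62 (log2). Of 17 small nucleolar RNA hosts, 0 were higher and 5 lower, with a median of -0.26 that became -1.08 with library totals (0 higher and 10 lower) and 0.11 after centring (1 higher and 2 lower). The members Snhg12 (77.2, 89.5 and 64.1) and Snhg6 (75.3, 67.7 and 44.6) stayed within 2-fold, but both were at least 2-fold lower with library totals (-1.08 and -1.55 at 4 h, log2). Of 8 microRNA hosts on the list, 3 were higher and 0 lower, and with library totals 3 and 1, and after centring 5 and 0. Among the 3 higher, Mir9-3hg had only 0, 2 and 9 reads. That list left out hosts such as F630028O10Rik, which fell (-2.49 at 4 h, log2), and 6720427I07Rik (0.27). Mir142hg, at 165, 181 and 309, and Lncpint, at 152, 129 and 112, stayed within 2-fold, but Mir142hg came to 1.27 after centring and Lncpint to -1.25 with library totals. Of 13 RNAs described in immune cells, 6 were higher and 5 lower, the members among them being Ptgs2os2, AW112010, Gm16685, Mir155hg and F630028O10Rik. Among coding genes with a mean of at least 1, 21.4% were higher and 23.4% lower at 4 h, and all 12 coding genes of the LPS response that were checked were higher.

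The 8 members with a transient fall included the let-7 host 6720427I07Rik (chr13:48532905-48546500, minus strand), with values of 149.9, 37.1 and 181 from 233, 17 and 333 reads. The most abundant of them, 1700020I14Rik, had 1589.5, 686 and 933 and came to -1.59 at 4 h (log2) with library totals. With library totals 6 of these 8 counted as repressed.

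Position was then compared with behaviour. GENCODE M21 gave a position for 96 members, each put in the first group that applied. Of these, 13 were divergent from a coding start within 2 kb. Among the others 36 overlapped a coding gene on the opposite strand, 4 overlapped only on the same strand and 43 were intergenic. Some divergent members also overlap a coding gene, such as Brip1os with Ints2 and Med13, and 4930599N23Rik with Kdm7a. Whether reads were counted by strand is not given in the sources used here. Reads of overlapping genes can therefore be mixed, and 24 members share at least 10% of their exon bases with coding exons. The nearest coding gene had a mean of at least 1 for 31 induced members. It was at least 2-fold higher at 4 h for 23 of these (74.2%) and at least 2-fold lower for 0, with a median change of 2.90 (log2), where 21.4% of the 13257 coding genes were higher. Without the members that share at least 10% of exons with coding genes it was higher for 17 of 21, for intergenic members alone for 7 of 9, and with library totals for 13 of 21, where 12.5% of coding genes were higher. The 23 and the 7 include AW112010, whose neighbour Ms4a8a had few reads. Ms4a8a had values of 0.643, 2.18 and 4.89, and counts as higher at 1.84 (log2).

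Examples outside the 8 largest changes, picked after their values were seen, were 9330175E14Rik with Nlrc5, the activator of MHC class I genes (2.16 and 4.19 at 4 h, log2), 4930599N23Rik with Parp12 (2.05 and 3.72), Gm26637 with Eif2ak2, the kinase PKR (1.81 and 3.03), and 2310001H17Rik with Cd69, an activation marker (1.17 and 6.10). With library totals the last 2 members came to 0.99 and 0.36, under 2-fold. Exceptions included Gm17435 (3.48), whose neighbour Slc35e1 changed by -0.24, and 9530082P21Rik (1.84), whose neighbour Paqr4 changed by -0.80. Others had a neighbour that rose by less than 2-fold, such as Zeb2os with Zeb2 (0.81) and Gm12764 with Lsm14a (0.95). For repressed members the nearest coding gene was measured for 18 and was at least 2-fold lower for 7 (38.9%) and higher for 2, where 23.4% of coding genes were lower. That count was 4 of 14 without shared exons, and with library totals it was 18 of 34 (52.9%), where 44.8% of coding genes were lower. For the 22 members within 2-fold, 3 neighbours were higher and 5 lower.

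**Figure D4:**
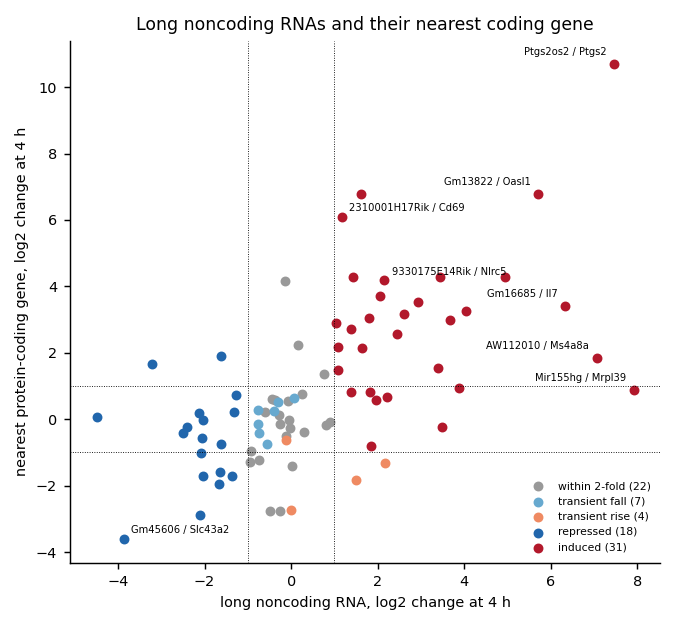
Log2 change at 4 h of each long noncoding RNA (horizontal axis) and of its nearest protein-coding gene (vertical axis), both on value + 1, for the 82 members whose neighbour had a mean of at least 1, coloured by class with the number in brackets. Dotted lines mark 2-fold; 23 of 31 induced members have a neighbour at least 2-fold higher and 0 have one at least 2-fold lower.

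In the AAV experiment the values are TPM, which are reads per length scaled to the same total in every sample, and they were compared with limma on log2(TPM + 1). Shisa3 itself, the gene carried by the virus, was at 7.88 and 10.85 TPM under AAV-GFP and reached 12.31 and 17.81 TPM under AAV-Shisa3, and its difference of 0.63 ± 0.22 (log2, SE) had an adjusted p = 0.138 (limma, Benjamini-Hochberg). Of the 97 members, 87 were present by symbol, 67 had a mean of at least 1 TPM and were tested among 11218 genes, and 4 were listed at 0 in all samples. 2 of the 67 were higher in AAV-Shisa3, where 2.23% of all tested genes were called higher. None (0) was lower, where 4.1% were called lower, and at an unadjusted p under 0.05 limma gave 9 of the 67 members higher and 5 lower, where it gave 921 higher and 2216 lower of the 11218 genes. Over all tested genes limma called 250 higher and 460 lower, and after centring each sample on its median value it called 410 higher and 230 lower, with 4 members higher among them. The exact permutation test of 2 against 2 samples cannot go below p = 0.333, so no single value can pass it.

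Neat1 was at 311.55 and 375.98 TPM in the controls (AAV-GFP) and at 527.65 and 550.76 TPM under AAV-Shisa3, a difference of 0.65 ± 0.10 (log2, SE; adjusted p = 0.0296, limma). AW112010 was at 27.22 and 30.16 TPM in the controls and at 45.78 and 41.65 TPM under AAV-Shisa3, a difference of 0.59 ± 0.10 (adjusted p = 0.0340, limma). For both, the AAV-Shisa3 samples lay above the AAV-GFP samples without overlap. Both calls were also lost with limma without trend (adjusted p = 0.0782 for Neat1 and 0.0744 for AW112010) and with no filter on low values (0.146 and 0.130). Leaving out any 1 of the 4 samples ended both calls: the adjusted p (limma) then ran from 0.102 to 0.150 for Neat1 and from 0.0997 to 0.166 for AW112010, with log2 differences of 0.52 to 0.79 and 0.52 to 0.66. Across all alternatives tried, the adjusted p ran from 0.0166 to 0.150 and from 0.0231 to 0.166.

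The neutrophil markers of the list also differed between these groups. They summed to 593 and 565 TPM in the controls and to 1089.5 and 681 TPM under AAV-Shisa3, 2 of the 7 tested (Ngp and Camp) were called higher, and Ly6g was at most 0.29 TPM. The macrophage markers summed to between 34736 and 38318 TPM with 1 of 8 called higher (Cd14), and the fibroblast markers summed to between 9.39 and 16.3 TPM. With no filter on low values limma called 0 genes higher, so the calls of Ngp, Camp and Cd14 were lost there. T cell markers summed to 5.85 and 7.27 against 8.87 and 10.51 TPM, nearly all of it Cd4 (5.76 and 7.13 against 8.82 and 10.39 TPM), with Cd3e and Cd3d at 0. B cell, dendritic cell and mast cell markers each summed to at most 1.06 TPM, with Mcpt4 and Fcer1a of mast cells at 0. The part of these cells in the calls of Neat1 and AW112010 was not tested.

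Other members had an adjusted p above the threshold, and 3 of them passed it under some alternatives. Gm15987, which was induced by LPS, was at 14.14 and 17.73 TPM in the controls against 9.77 and 10.08 TPM (adjusted p = 0.0566, limma). AI662270 was at 107.81 and 113.59 against 137.08 and 140.68 TPM (adjusted p = 0.0600, limma). F630028O10Rik was at 9.52 and 10.49 against 13.18 and 15.55 TPM (adjusted p = 0.0863, limma). Snhg20 was at 24.93 and 21.32 against 17.33 and 17.03 TPM (adjusted p = 0.0912, limma). Over the alternatives the lowest adjusted p (limma) was 0.0360 for Gm15987, 0.0353 for AI662270, 0.0479 for F630028O10Rik and 0.0618 for Snhg20, and the highest ran from 0.206 to 0.270. Mir142hg, the microRNA host, was at 6.35 and 13.69 against 19.31 and 18.51 TPM (adjusted p = 0.125, limma). Mir155hg, which rose most with LPS, was at 2.94 and 3.60 against 2.26 and 3.01 TPM, and its groups overlapped. Ptgs2os2 and Gm16685 were below 0.4 TPM in every sample and were not tested.

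**Figure D5:**
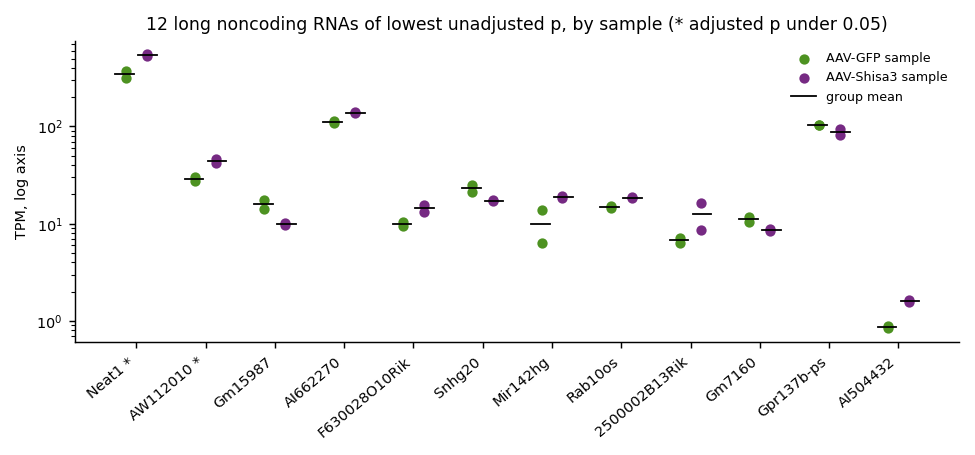
TPM on a log axis in each AAV-GFP sample (green) and AAV-Shisa3 sample (purple), with the group means as bars, for the 12 tested members with the lowest unadjusted p (limma). Stars mark Neat1 and AW112010, the members with an adjusted p under 0.05; the lone AAV-GFP sample of Mir142hg at 6.35 TPM lies well below the other at 13.69 TPM.

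Over the 67 tested members, both AAV-Shisa3 samples lay above both AAV-GFP samples for 18 (26.9%) and below them for 18 (26.9%), where the shares over all tested genes were 18.2% and 41.2%. The median difference of the members was -0.08, against -0.10 over all tested genes (log2). By LPS class the median difference was -0.14 for the 23 tested induced members and 0.19 for the 14 tested repressed ones. The 2 called members had gone opposite ways with LPS, by 7.06 for AW112010 and by -1.27 for Neat1 at 4 h.

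From the lists in the AAV table, 1 of 12 tested nuclear or imprinted RNAs was higher (Neat1) and 0 lower, 0 of 15 tested small nucleolar RNA hosts and 0 of 6 tested microRNA hosts were called in either direction, and of 5 tested RNAs described in immune cells 1 was higher (AW112010) and 1 lower. Over all tested genes, 2.23% were called higher and 4.1% lower. Of the 12 coding genes of the LPS response in the list, 4 were called higher (Cxcl10, Il1b, Tnf and Nfkbia) and 0 lower, with a median difference of 0.70 (log2) where that over all tested genes was -0.10. Cxcl10, an interferon-induced chemokine, was at 177 and 192 TPM in the controls against 941 and 654 TPM under AAV-Shisa3 (adjusted p = 0.0142, limma), and Il1b, the cytokine interleukin 1 beta, was at 76.3 and 130.2 against 255 and 388 TPM (adjusted p = 0.0361, limma). These 4 calls were also lost without trend, with no filter and without either AAV-GFP sample, and all but that of Cxcl10 without either AAV-Shisa3 sample, and their relation to the calls of Neat1 and AW112010 was not tested. The lower RNA described in immune cells was Hotairm1, a myeloid RNA of the HoxA cluster that is no member. It was at 3.49 and 4.62 TPM in the controls and at 0.59 and 0.31 TPM under AAV-Shisa3, a difference of -1.80 (log2; adjusted p = 0.0203, limma). That call was lost without trend (adjusted p = 0.0557, limma), with no filter (0.105) and with any 1 sample left out (0.0741 to 0.145). Both the members and these lists were chosen with results of these data known, so these counts are descriptions.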

How the data were processed

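RNA-seq was read from 2 deposited tables. For the LPS libraries the authors deposited a signal per gene, in which each library's reads were divided by 1 factor. Whole reads were recovered for 100% of the values (tolerance 0.001). For the AAV samples the authors deposited TPM. Aligner, counter, annotation and strand setting are not given in the sources used here, and the submitters' processing notes name the build mm9. Positions come from GENCODE M21 (GRCm38), matched by gene ID for 99.2% of genes, and sequences from RefSeq.

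Members needed a mean of at least 50, and changes were taken on log2(value + 1) with a 2-fold limit. Genes with at most 3 reads at 0 h were also set against 3 reads. AAV groups were compared with limma 3.58.1 (R 4.3.3) with trend, Benjamini-Hochberg adjusted over all genes averaging 1 TPM or more, at 0.05. TMM factors came from edgeR 4.0.16. The limma step was tested on simulated data first. The members and lists were chosen with earlier results of these data known. Named were the members on the lists, the 8 largest changes of the induced, transient and repressed classes, the 10 highest means, those called in AAV, those next to the floor, and the nearest coding genes of the second set. Alternatives were other scalings, pseudocounts, floors, filters and trend, a replicate block, and leaving out each AAV sample.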

Additional observations from a re-analysis of the deposited data

How the results depend on the processing

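With library totals, 25 members were higher and 40 lower at 4 h and 2 had a transient rise. A mean floor of 20 gave 42 members higher and 68 lower at 2 h and 54 higher and 63 lower at 4 h, so that more were lower than higher at 4 h, unlike at the floor of 50. A floor of 100 gave 16 higher and 11 lower at 2 h and 19 higher and 10 lower at 4 h. Those floors change how many members there are (185 and 48), so part of that move is by construction. The shares of all genes at floors of 20 and 100 were not computed, so the move cannot be called particular to the members. Only 2 transient rises had counting intervals wholly beyond 2-fold.

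In the AAV comparison the 2 members called higher became 0 with limma without trend, 0 with no filter on low values, 4 with each sample centred on its median and 0 with any 1 sample left out (range 0 to 0). In that design the lone sample of a group is assumed to vary like the other group. At least 1 TPM in every sample gave 3 members higher and 1 lower. With a replicate block, 4 members were called higher (AI662270 and F630028O10Rik beside Neat1 and AW112010) and 1 lower (Gm15987). Centring called the same 4 higher, and the filter on every sample called AI662270 higher and Gm15987 lower. With the block Shisa3 itself had an adjusted p of 0.0287 (limma). The 2 same-numbered pairs share only a number, with a correlation of deviations of 0.19. Over all genes tested, 250 were higher and 460 lower. These were 1 and 4 without trend, 0 and 0 with no filter (1118 and 2411 at an unadjusted p under 0.05), 410 and 230 after centring, 325 and 617 of 10508 with at least 1 TPM in every sample, 424 and 851 with the block, and between 0 and 32 higher and 0 and 10 lower with a sample left out. The cause of these moves was not tested.

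Of the 42 single members recomputed at 4 h, 11 crossed the 2-fold limit with library totals, among them AI662270 (0.56), Gm23925 (0.71), Malat1 (-1.10) and 1700020I14Rik (-1.59), 3 crossed it with each library centred on its median value (Brip1os at 1.17, Mir142hg at 1.27 and Neat1 at -0.90) and 0 with TMM factors. Of the 42, 0 with a change of at least 2-fold turned direction. The count of induced members with a higher neighbour was 13 of 21 with library totals and 7 of 9 among intergenic members, and the count of repressed members with a lower neighbour was 18 of 34 with library totals (52.9%, where 44.8% of coding genes were lower), 4 of 14 without shared exons and 4 of 10 among intergenic members. These neighbour alternatives were added after seeing the data. The 2 h library had a median of 42 reads per member, which limits how finely changes at 2 h are known.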

Other observations

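Malat1 and Neat1 stood in a different order in the 2 experiments. In the LPS libraries the value per kb of exon was 17802 for Malat1 and 3032 for Neat1 at 0 h, 11719.5 and 559 at 2 h, and 14676 and 1260.1 at 4 h. In the AAV samples Malat1 was at 68.16 and 107.44 TPM in the controls and 65.23 and 90.79 TPM under AAV-Shisa3, below Neat1 in each sample. The tables were made separately and the transcript lengths behind the TPM are not given in the sources used here. Kcnq1ot1, with a value of 1332 at 0 h of LPS, was at 0.01 to 0.04 TPM in the AAV samples, and AY036118 had the highest mean of the members there, at 818.90 to 1773.25 TPM.

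Annotation also bears on what counts as a long noncoding RNA. GENCODE M21 gives 1 member the type protein_coding (Inafm2) and 1 a pseudogene type (Gpr137b-ps), and 1 had no match (Gm21807).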
